A study of Homo sapiens with 6 samples.

Results

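The genes described here are the 6 actin isoforms of the human genome (*ACTB*, *ACTG1*, *ACTA1*, *ACTA2*, *ACTC1* and *ACTG2*), the transcription factor *SRF* and its cofactors *MRTFA* and *MRTFB*, 9 of the 62700 genes in the expression files. They were matched by GENCODE Release 44 symbol and were selected on the measured TPM, with *ACTB* lower, *ACTA2* higher and *SRF* lower in knockdown cells. Their differences are therefore given as a description without p-values. Calls that they received in the fit over all genes, under any setting, are no support. RNA–Seq covered 6 libraries of poly-A-selected RNA from SK-Hep-1, an established line from a human liver tumor that the study calls endothelial-derived. There were 3 control libraries, titled as carrying a control shRNA although their genotype label is WT, and 3 libraries of cells with an shRNA against the lncRNA *RAB30-DT*. By the study's methods the hairpins were delivered by lentivirus and the cells were selected with puromycin, and nothing states that the 3 libraries of a group came from separate cultures, so the p-values below measure the spread between libraries, which may be technical. The methods describe more than 1 hairpin, whereas the labels give the knockdown libraries as replicates of 1 group.

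The values are TPM, a measure of transcript abundance in which gene length is divided out and every library has the same total, so that levels of different genes in a library can be compared. TPM hold no read number, so the depth is unknown. Values of single libraries are given below in the order of replicates 1, 2 and 3. *RAB30-DT* itself was at 18.16, 11.51 and 13.91 TPM in the control libraries, against 11.94, 10.85 and 6.5 TPM after knockdown. The groups overlapped, with a log2 difference of −0.55 (SE 0.27, limma adjusted p = 0.355). The study also reports the efficiency of the knockdown in SK-Hep-1 cells by qPCR, another measure than these TPM. Of 10 hepatocyte markers, *ALB*, *APOB*, *TTR*, *HNF4A* and *CYP3A4* were at 0 in all 6 libraries and 1 was in the fit, *SERPINA1*, at 18.11 to 23.96 TPM in control and 28.25 to 37.19 TPM in knockdown cells, without overlap (limma adjusted p = 0.192). Of 10 endothelial markers, *KDR* and *ERG* were at 0 in all 6, *PECAM1* was at no more than 0.01 TPM, and *EGFL7* and *ROBO4* were in the fit and overlapped between the groups, at 19.06 to 48.65 and 2.17 to 7.1 TPM. Of 10 mesenchymal markers 8 were in the fit, 3 lower and 5 higher, with a median log2 difference of 0.06. In 3 of them the groups did not overlap, as in 23.3% of all tested genes. Of these 3, *VIM* was higher, at means of 3883 (control) and 4615 TPM (knockdown), with a log2 difference of 0.25 (limma adjusted p = 0.225). *PDGFRB* and *THY1* were lower (log2 differences −1.22 and −0.54, limma adjusted p = 0.120 and 0.226). *COL1A2* and *COL3A1* were at no more than 0.24 TPM. The part of these marker differences in the results was not tested. Control replicate 3 stood apart in immediate early genes, as described with them.

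Actin is the monomer of the thin filaments that give a cell its shape, tension and motility. Beta actin (*ACTB*) and gamma actin (*ACTG1*) are the cytoplasmic isoforms of nearly every cell, whereas *ACTA2* and *ACTG2* are typical of smooth muscle, *ACTC1* of heart and *ACTA1* of skeletal muscle. SRF binds a DNA element named the CArG box in the promoters of cytoskeletal and immediate early genes. Monomeric actin holds the MRTF proteins in the cytoplasm, and when monomers are drawn into filaments, for example through RHOA, MRTF enters the nucleus and acts with SRF on genes that include actin and SRF itself. A separate set of SRF cofactors, the ternary complex factors, links SRF to growth factor signalling and genes such as *FOS*.

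The cytoplasmic isoforms are so alike that their messages can be separated only where the bases differ, which bears on how their TPM are read. The first 30 coding bases show this, with capitals at the 6 positions that differ between *ACTB* and *ACTG1* (canonical GENCODE transcripts, hg38).
ACTB, chr7:5529628-5529657 (minus strand): atggaTgaTgaTatcgccgcgctCgtcGtC
ACTG1, chr17:81512325-81512354 (minus strand): atggaAgaAgaGatcgccgcgctGgtcAtT
Over the whole coding sequence of 375 codons, both isoforms were 91.3% identical in a global alignment, and *ACTB* and *ACTA2*, which has 377 codons, were 81.8% identical. The 3′UTRs of *ACTB* and *ACTG1*, of 600 and 719 bases, were 45.2% identical. The longest run of bases shared by their transcripts was 59, and that shared by *ACTB* and *ACTA2* was 32.

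The promoters of 3 members are shown because the CArG box is the element that SRF is known to bind, with the matches found by letters in capitals. The sequences are the 150 bases before the start site, taken from RefSeq promoter windows of the GRCh38.p14 assembly, with windows for 8 of the 9 members, all but *ACTB*.
SRF, chr6:43171119-43171268 (plus strand): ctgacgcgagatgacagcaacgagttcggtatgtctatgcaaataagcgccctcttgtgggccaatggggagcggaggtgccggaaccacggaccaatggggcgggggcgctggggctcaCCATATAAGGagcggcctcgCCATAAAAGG
ACTG1, chr17:81512800-81512949 (minus strand): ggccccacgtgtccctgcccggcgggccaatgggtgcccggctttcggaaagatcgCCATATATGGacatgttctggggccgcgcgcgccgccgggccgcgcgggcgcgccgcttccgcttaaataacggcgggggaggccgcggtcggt
ACTA2, chr10:88952774-88952923 (minus strand): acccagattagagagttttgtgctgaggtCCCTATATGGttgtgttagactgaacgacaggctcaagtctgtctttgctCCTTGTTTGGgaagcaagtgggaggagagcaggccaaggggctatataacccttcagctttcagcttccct
*SRF* had a CArG box at 30 and at 10 bases before its start site, and *ACTG1* had 1 at 94 bases before it. The window of *ACTA2* shown is the downstream of its 2 start sites, and its capitals mark near matches, in which 1 of the inner bases is C or G, at 121 and 71 bases before the start site. Of the 8 members, 5 had a CArG box on either strand of a window of 300 bases (*ACTG1*, *ACTA1*, *ACTC1*, *ACTG2* and *SRF*), against 1.60% of the 27305 genes with a window. Of all 35116 windows, 1.29% held a box and 6.94% a near match. No window of *MRTFA* or *MRTFB* held either. A match describes the letters only and was not tested as a binding site.

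Of the abundant actins, *ACTB* differed most between the groups. It lies on the minus strand of chromosome 7 of hg38 from 5526409 to 5563902, and it had 3069.02, 3242.17 and 2896.83 TPM in the control libraries, against 1374.15, 1545.49 and 1542.44 TPM after knockdown. All knockdown libraries were low and none came near the control libraries. Control cells averaged 3069 ± 173 TPM and knockdown cells 1487 ± 98.1 TPM (SD, n = 3 each), 51.5% lower, with a log2 difference of −1.05 (SE 0.10). In rank by TPM, *ACTB* went from between the 38th and the 50th most abundant gene of the control libraries to between the 108th and the 115th of the knockdown libraries. In bulk RNA, fewer cells that express a gene and less RNA per cell cannot be told apart.

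*ACTG1*, on the minus strand of chromosome 17 from 81509413 to 81523847, was the most abundant isoform in every library. It had 3379.2, 3695.01 and 3413.86 TPM in the control libraries, against 3305.33, 3577.3 and 3290.57 TPM after knockdown. The groups overlapped almost wholly, with means of 3496 ± 173 and 3391 ± 161 TPM (SD, n = 3 each) and a log2 difference of −0.04 (SE 0.09). The isoforms that are nearest in sequence thus parted in these libraries, as the group means of *ACTB* lay 1582 TPM apart and those of *ACTG1* 105 TPM. ENSG00000289182, an lncRNA on the opposite strand within *ACTG1*, reached 1.16 TPM at most.

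*ACTA2*, the smooth muscle alpha actin, which is also a usual mark of activated fibroblasts, was higher in knockdown cells. It lies on the minus strand of chromosome 10 from 88935074 to 88991339 and had 9.18, 10.05 and 8.07 TPM in the control libraries, against 39.19, 39.21 and 43.14 TPM after knockdown. Each group was tight and the groups were far apart, with means of 9.10 ± 0.992 and 40.5 ± 2.27 TPM (SD, n = 3 each), a 4.45-fold higher level and a log2 difference of 2.04 (SE 0.17). *FAS* and *STAMBPL1* overlap *ACTA2* on the opposite strand, and whether the counting used strand is not stated, so reads of these genes and *ACTA2* may not be told apart. Both had the other sign, with log2 differences of −0.51 (limma adjusted p = 0.320) and −0.37 (limma adjusted p = 0.408), and *ACTA2-AS1* was at no more than 0.69 TPM in any library.

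The other muscle isoforms were at or near 0. *ACTA1* had 0.05, 0.27 and 0.2 TPM in the control libraries, against 0, 0 and 0.2 TPM after knockdown. *ACTC1* was listed at 0 in every library but knockdown replicate 3, with 0.47 TPM, and *ACTG2* at 0 in all 6. These 3 genes had a mean under 1 TPM and were left out of the fit over all genes, so 6 of the 9 members entered it.

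*SRF* was lower in every knockdown library. It lies on the plus strand of chromosome 6 from 43171269 to 43181506 and had 15.55, 25.75 and 31.64 TPM in the control libraries, against 4.55, 5.78 and 6.7 TPM after knockdown. The control libraries were spread widely, yet the lowest of them was above the highest knockdown library. The means were 24.3 ± 8.14 and 5.68 ± 1.08 TPM (SD, n = 3 each), which is 76.7% lower, with a log2 difference of −1.88 (SE 0.28).

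The cofactors of SRF did not separate the groups. *MRTFA*, on the minus strand of chromosome 22 from 40410281 to 40636719, had 12, 12.66 and 11.38 TPM in the control libraries, against 9.59, 11.38 and 12.29 TPM after knockdown, with a log2 difference of −0.11 (SE 0.18). *MRTFB*, on the plus strand of chromosome 16 from 14071319 to 14266773, had 10.8, 7.19 and 6.4 TPM in the control libraries, against 7.55, 5.92 and 5.09 TPM after knockdown, with a log2 difference of −0.33 (SE 0.25). For both the groups overlapped. *SGSM3*, which overlaps the end of *MRTFA* on the opposite strand, had a log2 difference of −0.80 (limma adjusted p = 0.260). The ratio of *SRF* to *MRTFA* TPM averaged 2.04 ± 0.742 in control and 0.509 ± 0.0354 in knockdown cells (SD, n = 3 each), with no overlap, so *SRF* was the more abundant message in control cells and *MRTFA* in knockdown cells.

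**Figure D1:**
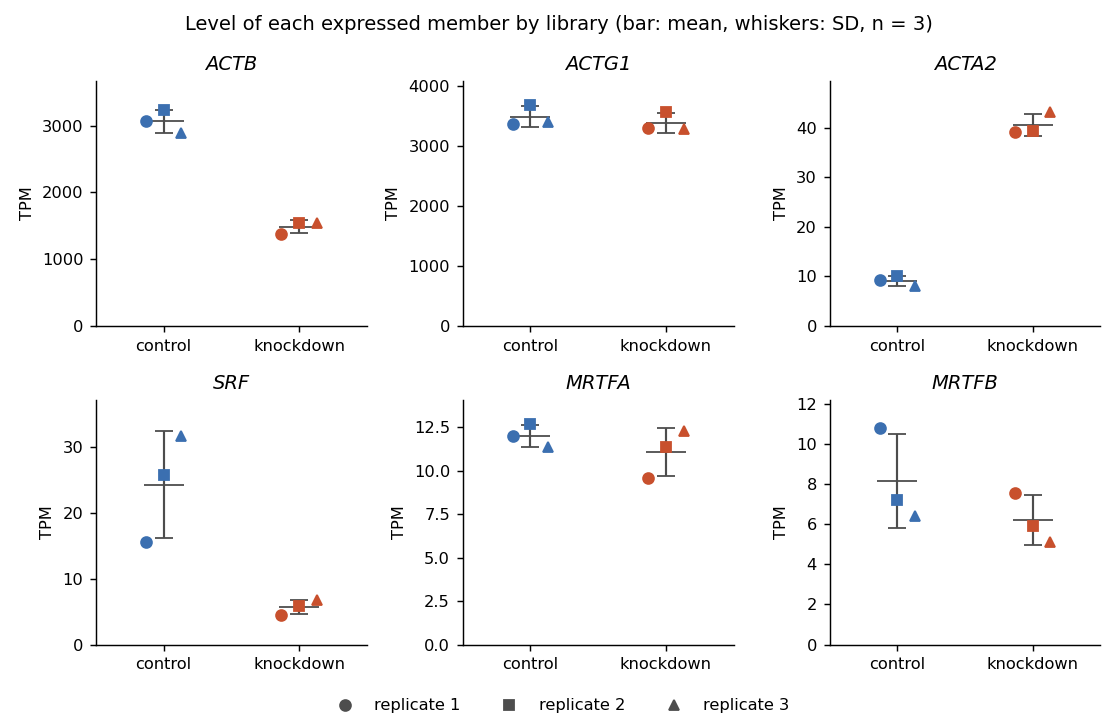
TPM of the 6 members with a mean of at least 1 TPM in each library (control blue, knockdown red, marker shape the replicate number), with the mean as a bar and the SD as whiskers (n = 3). The groups are apart for *ACTB*, *ACTA2* and *SRF* and overlap for *ACTG1*, *MRTFA* and *MRTFB*.

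Of the 14020 genes in the fit, limma called 146 at an adjusted p under 0.05, or 1.04%, with 0.371% called higher and 0.67% called lower, and 23.3% had groups that did not overlap. Among the 6 members in the fit, 3 were called, *ACTA2* as higher and *ACTB* and *SRF* as lower, and these were also the 3 without overlap. The members were chosen from this contrast, so nothing is read from these shares. *ACTB* and *SRF* were no longer called without a filter on low values, without control replicate 2 or without knockdown replicate 2, and *SRF* also not without knockdown replicate 1 or 3. *ACTA2* was called in every fit that left out 1 library and under every other setting. The members were chosen for these differences, so their calls are a description and no support.

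The make-up of the actin message was taken within each library, where a single scaling factor per library cancels. The ratio of *ACTB* to *ACTG1* TPM was 0.908, 0.877 and 0.849 in the control libraries, against 0.416, 0.432 and 0.469 after knockdown. The mean ratio went from 0.878 ± 0.0298 to 0.439 ± 0.0272 (SD, n = 3 each), and no library of one group came near the other. *ACTB* held 46.7% ± 0.842 of the summed TPM of the 6 actins in control and 30.2% ± 1.28 in knockdown cells, and *ACTG1* held 53.2% ± 0.848 and 68.9% ± 1.32 (SD, n = 3 each). *ACTA2* held 0.138% ± 0.00915 and 0.825% ± 0.0627 (SD, n = 3 each), a 5.97-fold larger share that was still under 1% of the actin message.

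The higher *ACTA2* was far too small in amount to offset the lower *ACTB*. Between the group means, *ACTB* was lower by 1582 TPM and *ACTA2* higher by 31.4 TPM. The summed actin TPM was 6575 ± 330 in control and 4919 ± 225 in knockdown cells (SD, n = 3 each), a ratio of 0.748. Actin made up 0.657% of all TPM in the control libraries, against 0.492% in knockdown libraries. The ratio of *ACTB* to *ACTA2* TPM went from 339 ± 18.6 to 36.7 ± 2.34 (SD, n = 3 each).

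**Figure D2:**
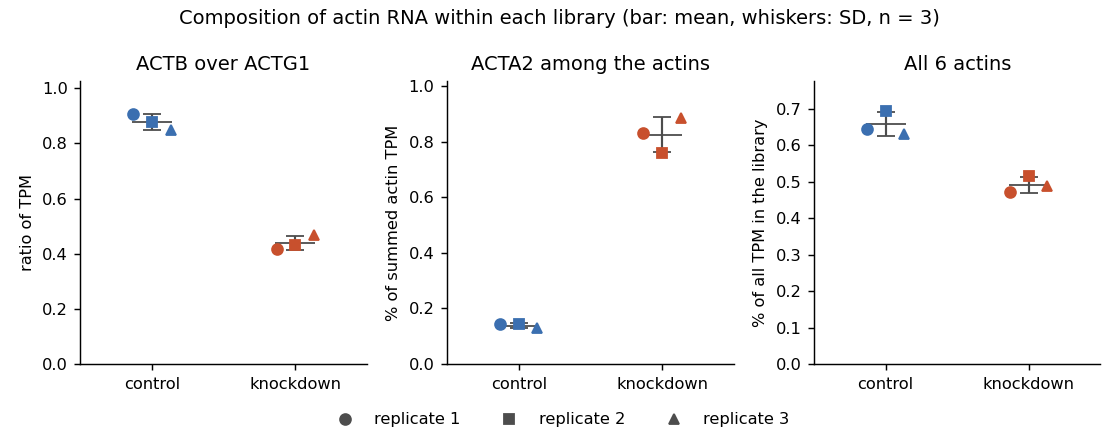
Ratio of *ACTB* to *ACTG1* TPM, share of *ACTA2* in the summed TPM of the 6 actins, and share of these actins in all TPM, in each library (bar, mean; whiskers, SD; n = 3). The ratio lies between 0.849 and 0.908 in control and between 0.416 and 0.469 in knockdown libraries, and the groups are apart in all 3 panels.

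Processed pseudogenes of *ACTB* and *ACTG1* took little of the signal. Of 33 such genes, 17 were at 0 in all 6 libraries, and their summed level ran from 5.17 to 8.8 TPM in the control libraries and from 6.98 to 9.12 TPM in the knockdown libraries. The 5 that passed 1 TPM in any library were *ACTG1P1*, *ACTG1P3*, *ACTG1P10*, *ACTG1P20* and *ACTG1P24*, with *ACTG1P20* the highest at 3.49 TPM. Of 14 other actin-like genes outside the Arp2/3 complex, 5 were in the fit, 2 lower and 3 higher, with a median log2 difference of 0.01. The lowest were *ACTRT3* (−0.12) and *ACTR1A* (−0.04), and the highest *ACTR10* (0.23) and *ACTR1B* (0.27), a subunit of the dynactin complex. limma called 0 of these, where 0 had an unadjusted p under 0.05 and arrayWeights, a fit that weights the libraries, called 0 too. Its weights were 3.00 for control replicate 2 and 4.39 for knockdown replicate 2. The other libraries had weights from 0.316 to 0.948, so arrayWeights calls here and below rest largely on 1 library per group.

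Genes that MRTF and SRF are known to drive were mostly lower in knockdown cells, but few passed the test. Of 29 such genes, listed with earlier results of these data known, 27 were in the fit. The log2 difference was below 0 in 23 and above 0 in 4, with a median of −0.22 beside −0.04 for all tested genes, of which 53.7% were lower. With quantile normalization 18 of the 27 were lower. The fit called 2 as lower and 0 as higher, and 11 lower and 2 higher genes had an unadjusted p under 0.05, as did 16.8% of all tested genes. In 12 genes the groups did not overlap, 11 of them lower and 1 higher, where 1.04% of all tested genes were called and 23.3% did not overlap. Such a share was not particular to these targets. The groups also did not overlap in 6 of 14 reference genes and in 10 of 17 actin folding and modification genes, described below.

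*THBS1*, which encodes the matrix protein thrombospondin 1, fell from 183.76, 169.22 and 156.64 TPM in the control libraries to 79.85, 76.01 and 59.44 TPM after knockdown. Its log2 difference was −1.24 (SE 0.17, limma adjusted p = 0.0252). *MYH9*, the heavy chain of nonmuscle myosin IIA, which pulls on actin filaments, fell from 199.38, 245.93 and 212.66 TPM to 110.22, 129.29 and 121.08 TPM in the same order. Its log2 difference was −0.86 (SE 0.15, limma adjusted p = 0.0442). *THBS1* was no longer called without control replicate 2 or any 1 knockdown library (adjusted p from 0.0865 to 0.138), and *MYH9* only without control replicate 1 was still called (0.0277, against 0.061 to 0.188 without any other library). Over the other settings the adjusted p was between 0.000652 and 0.0708 for *THBS1* and between 0.00124 and 0.0991 for *MYH9*.

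*CALD1*, *TAGLN* and *VCL* did not pass the test, and *CNN1* was below the filter. *CALD1*, which encodes the actin and myosin binding protein caldesmon, had 27.08, 25.77 and 26.61 TPM in the control libraries, against 16.43, 12.68 and 10.31 TPM after knockdown, a log2 difference of −0.98 (limma adjusted p = 0.0721). *TAGLN*, the smooth muscle protein transgelin, was low, at 1.71, 3.28 and 5.59 TPM in the control libraries, against 1.29, 1.51 and 0.91 TPM after knockdown (log2 difference −0.93, limma adjusted p = 0.246). *VCL*, the focal adhesion protein vinculin, had a log2 difference of −0.29 (limma adjusted p = 0.529). *CNN1*, the smooth muscle calponin, was at no more than 0.7 TPM in any library.

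The log2 difference was above 0 in 4 targets. *PDLIM5*, an adaptor of the actin cytoskeleton, had the highest log2 difference of the list, 0.80 (limma adjusted p = 0.207), followed by *ANKRD1* with 0.51 (0.273), *CCN2* with 0.34 (0.430) and *FHL1* with 0.19 (0.774), and none was called. *CCN1*, like *CCN2* a matricellular gene that SRF shares with YAP, had −0.16 (0.565), or 0.03 with quantile normalization.

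**Figure D3:**
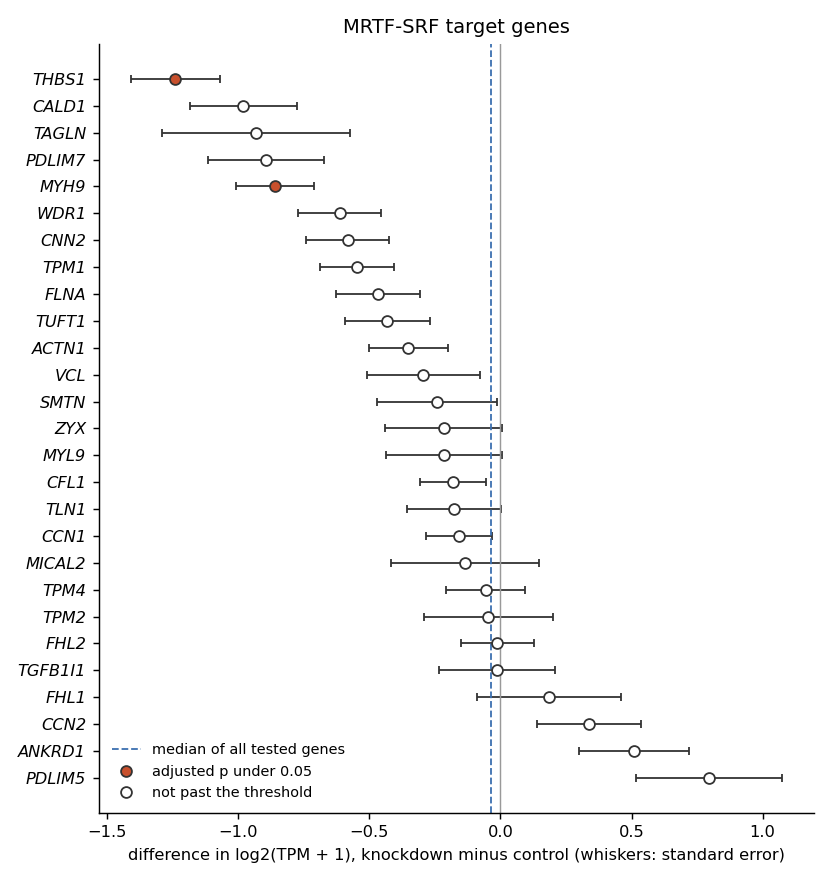
Difference in log2(TPM + 1), knockdown minus control, of the 27 tested MRTF-SRF target genes, with the standard error from limma as whiskers. Filled points, *THBS1* at −1.24 and *MYH9* at −0.86, have an adjusted p under 0.05, the dashed line is the median of all tested genes (−0.04), and 23 of the 27 points lie below 0.

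A CArG box was found in a promoter window of 8 of the 24 tested targets with a window (33.3%), *FLNA*, *CNN2*, *TPM4*, *ACTN1*, *FHL1*, *FHL2*, *TGFB1I1* and *SMTN*, against 148 of 10093 tested genes (1.47%). The list was made of known SRF targets, so its larger share is not a finding of these data. Neither *THBS1* nor *MYH9* was among the 8, where a gene without a window could not be counted. The log2 differences of these 8 ran from −0.58 for *CNN2* and −0.47 for *FLNA* to 0.19 for *FHL1*, and none was called.

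The sequence GAGTGAA had stood out in the 3′UTRs of lower genes in earlier results of the same data, so the sense strand of the members' 3′UTRs was searched for it. *SRF* had 1 site in its 3′UTR, at base 1988 of 2316, in the last of its 7 exons, here with the site in capitals.
SRF, chr6:43181167-43181195 (plus strand): acagacccagtGAGTGAAtcaggcaaagt
The 3′UTRs of the other 8 members held none, *ACTB* included. Of the MRTF-SRF targets, 4 of 27 carried it, *THBS1*, *MYH9*, *CALD1* and *TAGLN*, beside 1446 of the 11539 tested genes whose 3′UTR reached 50 bases (12.5%). The share is near that of all genes, and the sequence was taken up for its presence in lower genes, so nothing is read from the levels of its carriers. Any part of the site in the level of *SRF* was not tested.

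Immediate early genes, which the ternary complex factors and SRF switch on within minutes of a stimulus, rested largely on 1 library. Of 11 such genes 8 were in the fit. The log2 difference was below 0 in all 8, with a median of −1.12, which was −0.23 without control replicate 3, where 5 of the 8 were lower. *FOS* had 22.24, 29.84 and 411.45 TPM in the control libraries, against 9.08, 11.4 and 9.83 TPM after knockdown. *EGR1* had 15.36, 15.53 and 207.93 TPM in the control libraries, against 15.09, 17.17 and 14.47 TPM after knockdown. Control replicate 3 was thus high in both, while the other 5 libraries were close to each other in *EGR1*.

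The AP-1 gene *FOSB* had the lowest log2 difference, −4.04 (SE 1.31, limma adjusted p = 0.180), followed by *FOS* with −2.59 (SE 0.94, adjusted p = 0.225). limma called 0 of the 8, where 2 had an unadjusted p under 0.05 and arrayWeights called 2. Among all 14020 tested genes, 16.8% had an unadjusted p under 0.05 and arrayWeights called 3218. Without control replicate 3, *FOSB* had −2.21 (limma adjusted p = 0.0303) and *FOS* −1.28 (0.0456), and both were called. The highest were *NR4A1* with −0.04 and *MCL1* with −0.21, which were 0.28 and 0.20 without that library, as *EGR1* went from −1.21 to 0.01. *SRF* had its highest control level, 31.64 TPM, in this same library, and its log2 difference without it was still −1.67. Its level rose from replicate 1 to replicate 3 in both groups, from 15.55 TPM in control and from 4.55 to 6.7 TPM after knockdown. Any link of its level to the immediate early genes was not tested. A CArG box was found in a window of 1 of the 7 genes with a window, *EGR1*. Bases more than 250 before a start site were not searched, so a box there would be missed.

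**Figure D4:**
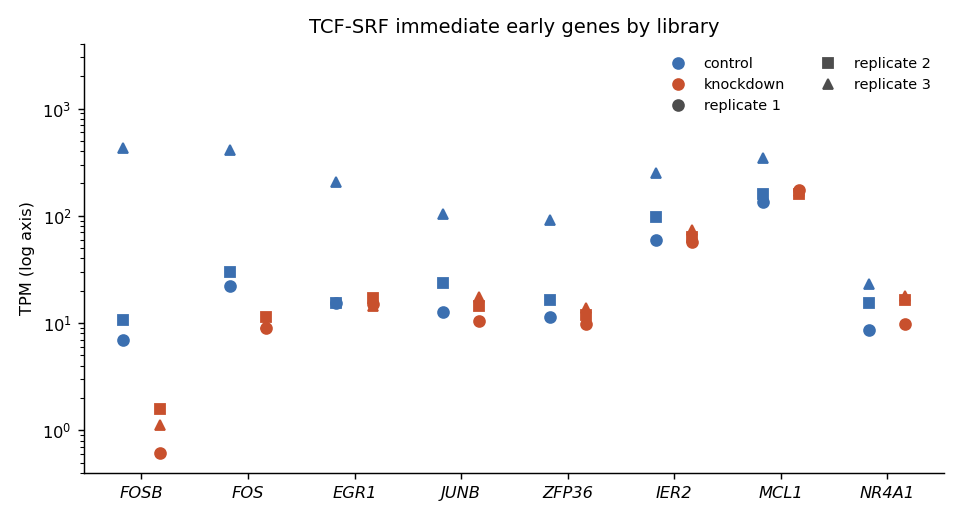
TPM (log axis) of the 8 tested immediate early genes in each library (control blue, knockdown red, marker shape the replicate number). Control replicate 3 is the highest library for all 8 genes, from 428 TPM for *FOSB* to 23.25 TPM for *NR4A1*, and only for *FOSB* and *FOS* are the other control libraries also above every knockdown library.

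On the upstream side of the pathway no gene was called. Of 12 SRF cofactors and regulators of MRTF, 10 were in the fit, 9 lower and 1 higher, with a median log2 difference of −0.30. The median was −0.15 without knockdown replicate 3 and −0.18 with quantile normalization. limma called 0 of them, where 4 had an unadjusted p under 0.05 and arrayWeights called 4. For all 14020 tested genes, 16.8% had an unadjusted p under 0.05 and arrayWeights called 3218. The ternary complex factors *ELK1*, *ELK3* and *ELK4* had −0.18, −0.08 and 0.03, and *MYOCD*, the muscle cofactor of SRF, was at no more than 0.07 TPM. The importin *IPO9*, which carries actin into the nucleus, had the lowest difference, −0.54 (limma adjusted p = 0.178), followed by the importin beta *KPNB1* with −0.44 (0.152). *RHOA*, the small GTPase upstream of actin assembly, had 686.89, 593.38 and 399.73 TPM in the control libraries, against 642.34, 564.66 and 514.86 TPM after knockdown, which overlapped (log2 difference 0.07, limma adjusted p = 0.903).

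No actin folding gene was called. Of 17 genes of the CCT chaperonin, prefoldin and actin modification, the log2 difference was below 0 in 13 and above 0 in 4. The median was −0.34, which was −0.15 with quantile normalization, and in 10 the groups did not overlap (23.3% of all tested genes). limma called 0, where 7 lower and 1 higher gene had an unadjusted p under 0.05 and arrayWeights called 8. Over all 14020 tested genes, 16.8% had an unadjusted p under 0.05 and arrayWeights called 3218. *CCT5* had −0.63 (limma adjusted p = 0.0949) and *PFDN2* −0.61 (0.149), while *PFDN5* had 0.50 (0.0993). *SETD3*, the actin histidine methyltransferase, had −0.53 (0.190), *NAA80*, the actin N-terminal acetyltransferase, 0.07 (0.936), and *ACTMAP*, the actin maturation protease, 0.15 (0.733).

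The Arp2/3 complex, which nucleates branched filaments, had differences on both sides of 0. Its 9 genes had a median log2 difference of −0.08, which was 0.10 with quantile normalization, from *ACTR3* (−0.38) and *ACTR2* (−0.17) to *ARPC1A* (0.17) and *ARPC3* (0.28). limma called 0 of them, where 0 had an unadjusted p under 0.05 and arrayWeights called 0.

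Other smooth muscle markers were set beside *ACTA2*. Of 10 such genes 3 were in the fit and none was called, *SMTN*, *MYLK* and *TAGLN*, with log2 differences of −0.24, 0.15 and −0.93. The other 7, among them *MYH11*, *DES*, *CNN1* and *LMOD1*, were at no more than 0.7 TPM in any library. The summed level of the 10 ran from 218 to 252 TPM in the control libraries and from 212 to 221 TPM in the knockdown libraries. Their part in the higher *ACTA2* was not tested. Striated muscle markers were scarcer, with 2 of 10 in the fit, 5 at 0 in all libraries and sums of no more than 5.39 TPM.

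*ACTB* is often used as a reference gene, and 14 other such genes were set beside it. Of these, 5 were lower and 9 higher, with a median log2 difference of 0.17. In 6 of them the groups did not overlap, 2 lower and 4 higher, as in 23.3% of all tested genes. In limma 2 lower and 5 higher genes had an unadjusted p under 0.05, as did 16.8% of all tested genes. *PGK1*, a glycolytic enzyme, was the only one called and rose from 334 ± 29.4 to 862 ± 97.9 TPM (SD, n = 3 each; log2 difference 1.36, SE 0.14, limma adjusted p = 0.00861), although it was not called without control replicate 2 or knockdown replicate 1 or 2 (adjusted p from 0.0533 to 0.0761) or without a filter on low values (0.0535). *RPLP0* had 0.49 (limma adjusted p = 0.0712), *GAPDH* 0.18 (0.394), *HPRT1* −0.26 (0.544) and *GUSB* −0.66 (0.205). *ACTB*, at −1.05, lay below all 14, but it was chosen for being lower in this contrast, so its place is a description.

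Across the 6 libraries, *ACTB* and *SRF* followed each other (Pearson's r of log2 values 0.943) and ran against *ACTA2* (−0.977 and −0.946). These r rest on 6 points in 2 groups and carry the group difference, and the members were chosen for it, so they are a description. The genes whose pattern was most like that of *ACTB* were *RPIA* (r = 0.998), *MAPKAPK2*, *CLU*, *EHMT1* and ENSG00000280614 (r = 0.994). Their log2 differences were −1.63, −1.36, −1.61, −0.35 and −1.92 in that order. Most like *ACTA2* were *RPS25* (r = 0.998), *CPPED1*, ENSG00000280128, the keratin *KRT34* and *LGMN* (r = 0.995), and *KRT34*, with means of 8.67 (control) and 35.8 TPM (knockdown), was closest to it in size. Most like *SRF* were *MRPL46* (r = 0.998), *SRSF1*, *CDCA8*, *PAF1* and *SRSF2* (r = 0.997), with log2 differences from −0.84 to −0.32 against −1.88 for *SRF*. With so few libraries 224, 164 and 282 genes had an r over 0.95 with *ACTB*, *ACTA2* and *SRF*.

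The direction of the 3 called members held in every setting. They were chosen for these directions in the same libraries, so this is a description of the settings and no support. The log2 difference of *ACTB* stayed between −1.16 and −0.99, that of *ACTA2* between 1.69 and 2.15 and that of *SRF* between −2.16 and −1.42. Without any 1 library, the ratio of *ACTB* to *ACTG1* in knockdown over control cells was between 0.483 and 0.513, and the share of *ACTA2* was between 5.75 and 6.21 times that of control cells.

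**Figure D5:**
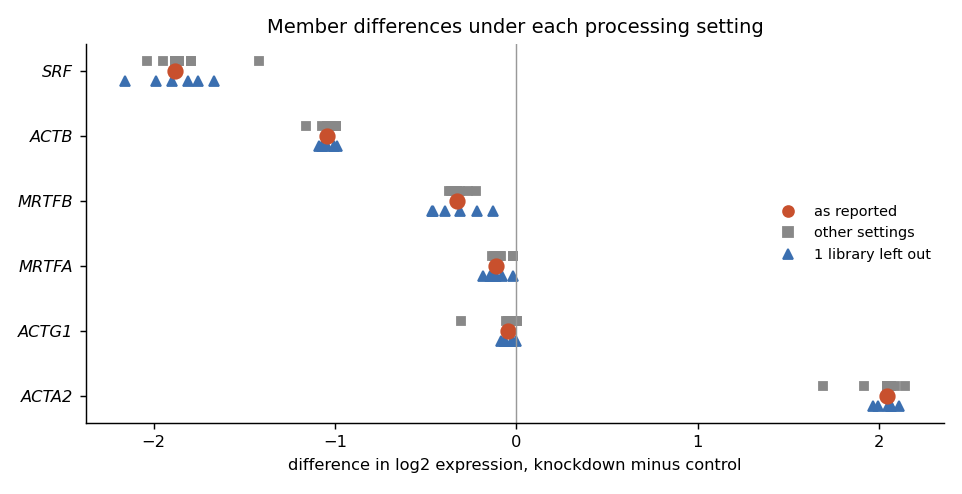
Difference in log2 expression, knockdown minus control, of the 6 members in the fit as reported (red), under each other setting (gray squares) and with each library left out (blue triangles). *ACTB*, *SRF* and *ACTA2* keep their side of 0 throughout, while *ACTG1*, at −0.04 as reported, ranges from −0.31 to 0.00.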

How the data were processed

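RNA–Seq of 6 SK-Hep-1 libraries was analysed from the deposited gene-level TPM, which the authors made per library without pooling, scaled for length and to a fixed total, and rounded to 2 decimals. The study's methods name fastp, STAR and RSEM, whereas the submitters' processing notes name hg38, fastp and HISAT2 2.0.5, so the aligner is uncertain. All 62700 versioned gene identifiers were those of GENCODE Release 44, which gave names, positions, GC content and transcripts. The depth and counting error cannot be had from TPM, and precision rests on 3 libraries per group, where an exact test cannot go below p = 0.1.

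Values were analysed as log2(TPM + 1), on which fold changes of low genes are understated, for 14020 genes that averaged 1 TPM or more, in R 4.3.3 with limma 3.58.1 (lmFit, eBayes with trend, 2-sided, no replicate block, Benjamini–Hochberg adjustment over all tested genes). The fit was tested on simulated data for the recovery of known differences. The simulated noise was independent between genes and libraries. It held no effects shared by the genes of a library, so it does not bear on the calls here. Groups follow the sample titles. The members, the gene lists and the 7-base sequence were chosen with earlier results of these data known, and the members were chosen from this contrast, so no p is given for them. Named genes are the members, all called genes and the 2 highest and 2 lowest of each list other than the marker lists, a fixed set (*TAGLN*, *CNN1*, *VCL*, *CCN1*, *CCN2*, *FOS*, *EGR1*, the ELK genes, *MYOCD*, *RHOA*, *NAA80*, *SETD3* and *GAPDH*), the 5 genes most like *ACTB*, *ACTA2* and *SRF* by Pearson's r, and genes above 1 TPM that overlap a member or are its pseudogene. A further list and 1 further gene are not reported here. Further genes were named for their promoter or 3′UTR match, or as markers. CArG boxes were searched on both strands of RefSeq windows (250 bases before to 50 after a start site). Alignments used Biopython 1.88 in Python 3.11.15. Alternatives were pseudocounts of 0.1 and 5, no filter, a filter at 5 TPM, scaling by median of ratios, quantile normalization, removal of each library's GC trend (loess, span 0.3), eBayes without trend, arrayWeights (gene-by-gene), a replicate block, the block with the GC trend removed, and each library left out.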

Additional observations from a re-analysis of the deposited data

How the results depend on the processing

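Against 146 genes called, there were 13 without a filter, 1242 with the GC trend removed, 3218 with arrayWeights and from 12 to 489 with 1 library left out, the lowest without control replicate 2 and the highest without control replicate 1. The arrayWeights fit rested largely on control replicate 2 and knockdown replicate 2, which had the largest weights. Leaving out knockdown replicates 1, 2 or 3 gave 18, 15 or 16. The split of 52 higher and 94 lower (35.6% higher) became 60 and 69 (46.5%) with median-of-ratios scaling, 78 and 83 (48.4%) with quantile normalization, and 44.8%, 44.7% and 50% to 60% higher with the GC trend removed, with eBayes without trend, and without control replicate 2 or any 1 knockdown library. Of the MRTF-SRF targets, 0 were called without a filter (13 at an unadjusted p under 0.05), 1 each with median-of-ratios scaling, quantile normalization and eBayes without trend, 7 with the GC trend removed, 13 with arrayWeights and from 0 to 4 with 1 library left out. Their median was −0.12 with quantile normalization, −0.13 with the GC trend removed, −0.33 with arrayWeights and from −0.31 to −0.16 with 1 library left out. Of the immediate early genes, 2 were called with arrayWeights and from 0 to 2 with 1 library left out, where the 2 came without control replicate 3. *ACTB* had −1.16 with quantile normalization, *ACTA2* had 1.69 with a pseudocount of 5 and 1.92 with arrayWeights, and *SRF* had −1.42 with a pseudocount of 5. *ACTB* and *SRF* were not called without a filter, where 27381 genes were tested. The causes of these changes were not tested.

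Log2 differences that changed sign were all of genes not called. With quantile normalization these were *ACTR1A* (0.12), *ACTR2* (0.018), *CCN1* (0.034) and *ELK3* (0.038). With the GC trend removed they were the member *ACTG1* (0.0020), *ACTR1A* (0.011), *ELK4* (−0.012) and *NR4A1* (0.050), with the same values when the block was added, and with arrayWeights *NAA80* (−0.026), *NR4A1* (0.036) and *RHOA* (−0.038). With 1 library left out the ranges were −0.076 to 0.027 for *ACTR1A*, −0.45 to 0.054 for *ACTR2*, −0.23 to 0.019 for *ACTRT3*, −1.83 to 0.0081 for *EGR1*, −0.31 to 0.11 for *ELK3*, −0.16 to 0.28 for *ELK4*, −0.48 to 0.20 for *MCL1*, −0.19 to 0.29 for *NAA80*, −0.39 to 0.28 for *NR4A1* and −0.16 to 0.23 for *RHOA*. Of the other values, *ACTG1* counted with them, 799 kept their side of the threshold or moved by less than the spread between replicates, 45 moved, 18 became weaker and 40 stronger.

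Both groups are numbered 1 to 3. Libraries of the same number had correlations of 0.41, 0.036 and 0.279 between their deviations from the mean of their group, and control replicate 2 correlated best with knockdown replicate 3 (0.111), so no pairing was assumed. With a replicate block 861 genes were called, among them 9 MRTF-SRF targets, and 1074 and 7 when that fit also removed the GC trend, where the median of the MRTF-SRF targets was −0.13.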
